A study of Mus musculus with 23 samples.

Results

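The 40 genes described here encode the enzymes, transporters and regulators of glycolysis and the best-known genes of the response to low oxygen in the mouse. They are set by a list of symbols with no threshold on a value, drawn up with earlier results of these data known, and all 40 were found among the 41073 genes of the count tables. They comprised 3 glucose and lactate transporters, 16 glycolytic enzymes, 3 regulators of glycolytic flux, 4 genes of oxygen sensing, 4 mitochondrial and mitophagy genes, 2 carbonic anhydrases and 8 secreted or other hypoxia-responsive genes. Every one passed the filter on low counts in each of the 5 comparisons, although Ndufa4l2, with 0 counts at isolation, could pass there only through the later groups.

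RNA was sequenced in bulk from EpCAM-positive epithelial cells of the lungs of C57BL/6 wild-type mice (C57BL/6J in the design text). Cells were either fresh or grown on transwell inserts, with air above the cell layer once the upper medium was removed (airlift). The sample titles do not say whether RNA of the airlift group was taken before or after that removal. The 23 libraries formed 4 groups, namely cultures exposed to NTHi and taken at day 4 (7 libraries), untreated control cultures at day 4 (7 libraries), untreated cells on the day of airlift, when the upper medium is removed (6 libraries), and untreated cells on the day of isolation (3 libraries). NTHi is the usual abbreviation for non-typeable Haemophilus influenzae, a bacterium of the airways, and no source used here gives its strain, dose or time of exposure. Each of 3 experiments, named A, B and C in the labels, held every group, with 1 isolation library each, and no label states whether replicates are different animals or culture wells, which leaves the spread behind each p-value possibly technical. Libraries held 32323375 to 39081663 counts.

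The cells were labelled airway epithelial. Summed pan-epithelial markers (Epcam, Cdh1, Krt8, Krt18, Krt7 and Cldn4) lay between 6614 and 9416 CPM in every library (CPM are counts scaled to the normalised library total). Airway markers, led by Scgb1a1, summed to 1807 to 2293 CPM in NTHi cultures, 2805 to 4204 CPM in control cultures, 18747 to 26229 CPM at airlift and 151062 to 162773 CPM at isolation, with none of the 6 at 0. Most of the sum at airlift and in control cultures was Scgb1a1, with means of 22164 and 2973 CPM. It was the 1 airway marker lower in control cultures than at airlift, and the other 5 were higher. Alveolar markers, led by Sftpc, were also high at isolation (66848 to 90290 CPM), so both kinds of lung epithelium were present in what the labels call airway cells. The 12 macrophage and monocyte markers summed to 2525 to 6181 CPM in NTHi cultures and 5937 to 12607 CPM in control cultures, and to 3060 to 3545 CPM at airlift and 18870 to 25632 CPM at isolation. The 8 neutrophil markers summed to 6.59 to 24.7 CPM in NTHi cultures, with Cxcr2, Mpo and Elane at 0 in every NTHi library, and to 4.42 to 7.80 CPM in control cultures, with Mpo at 0. The 10 mesenchymal markers summed to 192 to 535 CPM in NTHi cultures, 201 to 504 CPM in control cultures, 29.6 to 80.1 CPM at airlift and 18.6 to 32.6 CPM at isolation. The part of this changing mixture in the results below was not tested, and in bulk RNA fewer cells of a type and less RNA per cell cannot be told apart.

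Glycolysis turns glucose into pyruvate in the cytosol, and lactate dehydrogenase and lactate exporters keep it running when mitochondria take up little pyruvate. When oxygen is scarce, the prolyl hydroxylases encoded by Egln1 and Egln3 no longer mark the HIF alpha subunits (Hif1a and Epas1) for destruction, and the stabilised factors raise transcription of glycolytic genes, of mitophagy receptors and of Egln3 itself. HIF activity is set largely at the level of protein, so the mRNA levels below describe the transcripts of these genes and not HIF activity.

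HIF binds a short core, written here as ACGTG or GCGTG, and the promoters of 6 members are printed because the levels of these genes are described below and their windows differ in that core. The sequences are RefSeq's, of build GRCm38.p6 (the count tables were made on GRCm39, so the coordinates are of another build), and each runs 5′ to 3′ on the gene's strand over the 250 bases before the annotated start. Capitals mark ACGTG or its reverse complement CACGT, and the palindrome CACGTG counts once on each strand.
Pgk1 (chrX:106186850-106187099, plus strand): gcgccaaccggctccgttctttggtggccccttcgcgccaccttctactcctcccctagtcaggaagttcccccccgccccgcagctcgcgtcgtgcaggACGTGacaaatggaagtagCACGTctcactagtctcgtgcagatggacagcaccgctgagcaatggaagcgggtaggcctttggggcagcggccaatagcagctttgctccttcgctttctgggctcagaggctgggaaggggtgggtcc
Ldha (chr7:46845554-46845803, plus strand): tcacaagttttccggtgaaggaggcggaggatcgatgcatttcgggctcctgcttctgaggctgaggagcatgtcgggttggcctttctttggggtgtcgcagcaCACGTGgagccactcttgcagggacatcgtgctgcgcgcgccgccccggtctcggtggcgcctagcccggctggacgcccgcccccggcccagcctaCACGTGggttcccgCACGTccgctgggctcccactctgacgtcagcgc
Egln3 (chr12:54203875-54204124, minus strand): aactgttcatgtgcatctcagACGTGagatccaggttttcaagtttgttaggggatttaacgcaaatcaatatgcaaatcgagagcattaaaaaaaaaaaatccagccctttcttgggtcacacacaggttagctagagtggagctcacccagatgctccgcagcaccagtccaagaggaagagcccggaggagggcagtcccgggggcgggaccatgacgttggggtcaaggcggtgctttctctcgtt
Ankrd37 (chr8:45999851-46000100, minus strand): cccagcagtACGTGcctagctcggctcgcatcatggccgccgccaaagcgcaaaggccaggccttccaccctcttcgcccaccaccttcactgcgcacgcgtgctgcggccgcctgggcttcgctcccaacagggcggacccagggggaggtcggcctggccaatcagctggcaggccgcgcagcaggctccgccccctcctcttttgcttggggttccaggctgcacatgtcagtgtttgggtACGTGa
Slc16a3 (chr11:120948817-120949066, plus strand): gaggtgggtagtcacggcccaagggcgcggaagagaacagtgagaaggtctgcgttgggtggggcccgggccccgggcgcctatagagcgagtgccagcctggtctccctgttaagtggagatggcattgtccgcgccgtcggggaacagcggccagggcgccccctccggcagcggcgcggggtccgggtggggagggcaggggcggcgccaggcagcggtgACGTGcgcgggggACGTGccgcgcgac
Tpi1 (chr6:124814159-124814408, minus strand): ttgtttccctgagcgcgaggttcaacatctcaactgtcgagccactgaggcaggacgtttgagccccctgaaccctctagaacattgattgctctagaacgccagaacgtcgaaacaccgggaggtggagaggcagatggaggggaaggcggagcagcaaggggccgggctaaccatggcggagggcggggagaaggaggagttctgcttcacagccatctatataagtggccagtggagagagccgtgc
The first annotated Ldha window held 5 matches of ACGTG on either strand, 4 of them in 2 palindromes. The windows of Pgk1, Ankrd37 and Slc16a3 held 2 each and that of Egln3 held 1. Among these windows only that of Ankrd37 also held GCGTG on either strand, with 2 matches that are not capitalised. The window of Tpi1 held neither ACGTG nor GCGTG. The table held 36 of the 40 members (not Slc2a3, Epas1, Ndufa4l2 and Bnip3l), and 21 of the 36 (58.3%) had ACGTG on either strand in at least 1 window, against 4998 of 27025 genes (18.5%) in the whole table. Counted by window, ACGTG stood in 46.2% of the members' 52 windows, against 16.6% of all 32851 windows. GCGTG stood in the windows of 24 members (66.7%), against 30.9% of all genes. These windows were also richer in CpG, with a median of 16.5 CpG per window in members against 6 in all genes, and each core contains a CpG. The members were listed in part as known genes of the response to low oxygen, so these shares are not independent of how the list was made. A match is a stretch of letters and not a measured binding site.

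Together the 40 genes took 1.18 ± 0.083% of a library's counts in NTHi cultures (SD, n = 7), 0.857 ± 0.036% in control cultures (SD, n = 7), 2.41 ± 0.16% at airlift (SD, n = 6) and 0.446 ± 0.003% at isolation (SD, n = 3). At airlift 29 members were higher than at isolation, 6 were lower and 5 did not pass the test (edgeR's quasi-likelihood F-test with Benjamini-Hochberg adjustment over all genes tested, called where the adjusted p was below 0.05). Over all 18302 genes tested 37.9% were higher and 36.7% lower, and the median log2 fold change was 1.63 for the members against 0.00 for all genes. With Ndufa4l2 set at its lower bound the members' median was also 1.63. It could not have moved, since the fitted value and the bound (8.33) both lie far above it. The counts of higher members in this comparison include Ndufa4l2. A log2 rise of at least 1 was reached by 27 members and by 14.7% of all genes. The CPM ranges of airlift and isolation did not overlap for 34 members, 28 above and 6 below, where 33.7% of all genes lay above and 33.2% below. Scaling by library totals only moved the median of all genes to 0.49 and that of the members to 2.11, with 33 members higher and 4 lower, and 70.6% of all calls were then higher against 50.8%.

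In control cultures at day 4, 31 members were lower than at airlift, 4 were higher and 5 did not pass the test, where 27.7% of all genes were lower and 26.9% higher. The members' median log2 fold change was -1.28, against -0.02 for all genes. A log2 fall of at least 1 was reached by 24 members and by 6.85% of all genes. The ranges did not overlap for 33 members, 29 below and 4 above airlift, where 13.3% of all genes lay below and 15.1% above. At this step all 9 mesenchymal markers tested were higher in control cultures, 8 of them by at least 1 on the log2 scale (median 2.09), as were 6 of 6 alveolar and 5 of 6 airway markers, and their part in the members' fall was not tested. Against isolation, day 4 control cultures had 24 members higher and 10 lower, where 38.8% of all genes were higher and 37.7% lower, with a median of 0.52 for members. With scaling by library totals only, 29 members were higher and 5 lower against isolation, and 69.3% of all calls were higher against 50.7%. The comparisons between stages share libraries and are therefore not independent of each other.

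NTHi cultures had 28 members higher than control cultures of the same day, 6 lower and 6 that did not pass the test. The shares over all 16337 genes tested were 20.1% higher and 20.4% lower, and the median log2 fold change was 0.46 for the members against 0.00 for all genes. The sizes were moderate, since 4 members (Hif1a, Pfkfb3, Ndufa4l2 and Hk2) rose by at least 1 on the log2 scale, as 3.27% of all genes did. The CPM ranges of the groups did not overlap for 22 members, of which 20 lay above control in every NTHi library and 2 (Slc2a3 and Vegfa) below, where 8.26% of all genes lay above and 7.52% below. Of the 34 members called, 33 had the same sign in all 3 experiments, the exception being Ankrd37. The calls were made on these same libraries, so this agreement is not independent support. The share over all genes called was not computed. With scaling by library totals only, 27 members were higher and 6 lower, while 34.1% of all calls were higher against 49.6%. Compared with airlift, NTHi cultures had 31 members lower and 9 higher, where 31.1% of all genes were lower and 29.7% higher, with a median of -0.98.

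**Figure D1:**
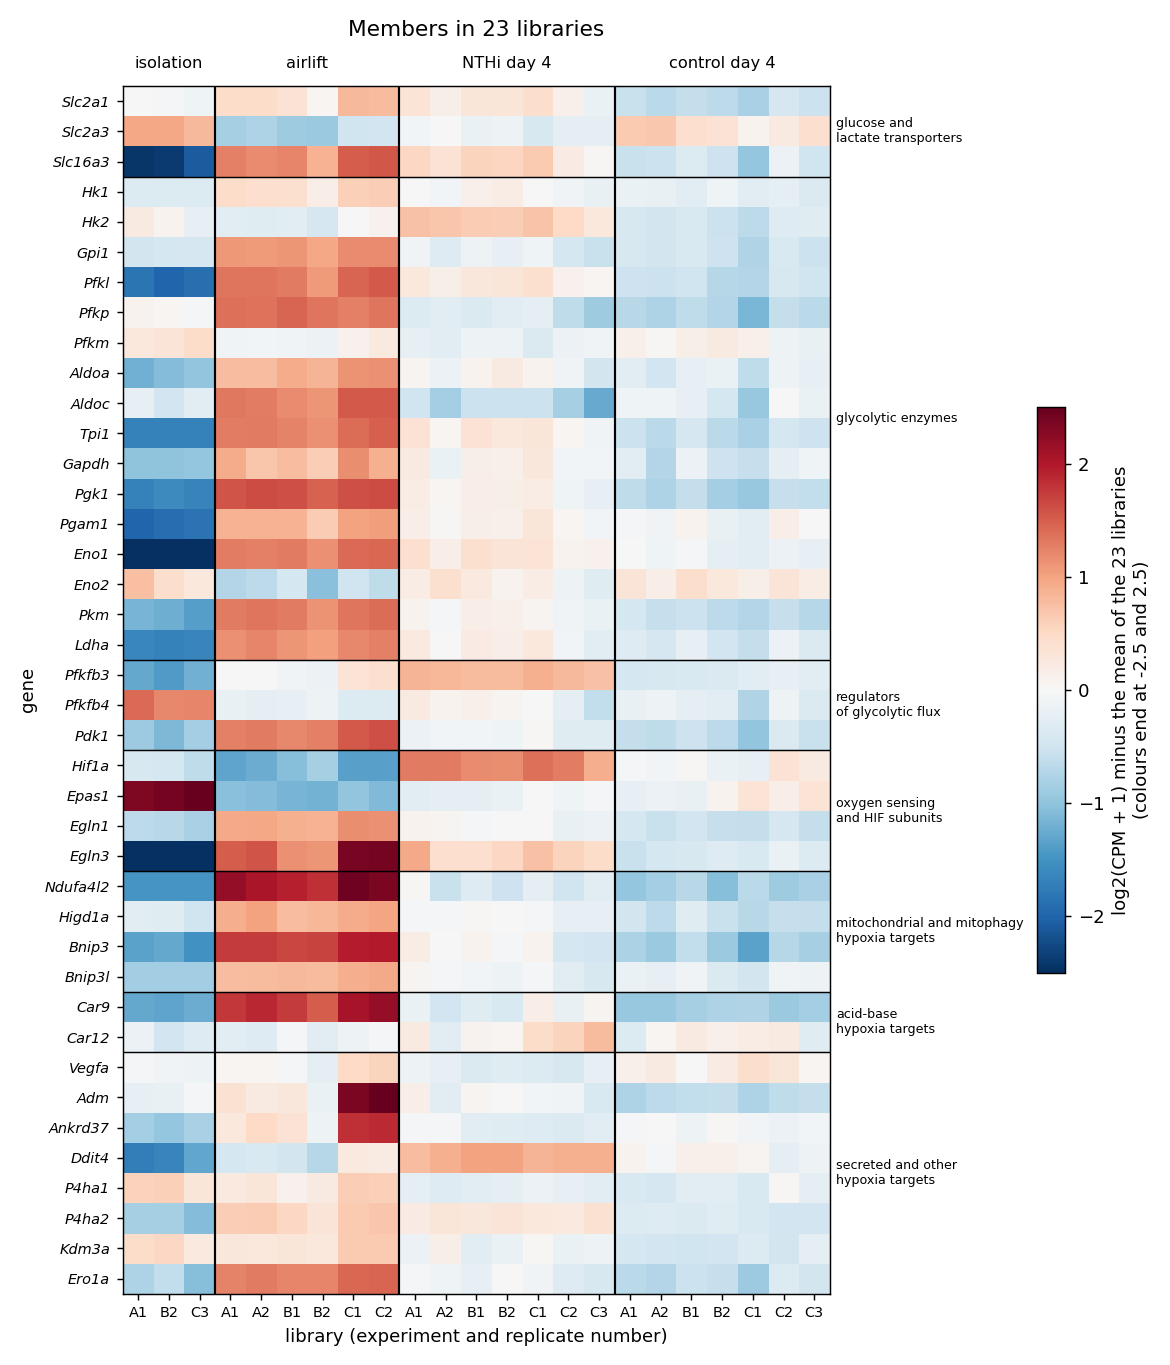
Level of each member in the 23 libraries, as log2(CPM + 1) minus that gene's mean over all libraries. Columns are libraries by group, experiment and replicate number, and lines separate role groups. Pgk1, Ldha, Pkm and Eno1 were lowest at isolation, highest at airlift and between those levels at day 4, higher in NTHi than in control cultures, while Epas1 was highest at isolation and Hif1a, Hk2 and Pfkfb3 were highest in NTHi cultures.

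Among the transporters, Slc2a1 and Slc16a3 rose with NTHi and Slc2a3 fell. Slc2a1 encodes the widespread glucose importer GLUT1. It had 204 to 346 CPM (median 273) at airlift, against 199, 193 and 184 CPM at isolation, and at day 4 176 to 270 CPM (median 243) in NTHi cultures, against 113 to 147 CPM (median 131) in control cultures. Every NTHi library lay above every control library, by a log2 fold change of 0.83 ± 0.08 (adjusted p = 1.5e-06, edgeR), and control cultures lay -1.14 ± 0.08 from airlift. Slc16a3, the lactate exporter MCT4, had 189 to 303 CPM (median 246) at airlift, against 18.2, 18.9 and 23.7 CPM at isolation, a log2 rise of 3.65 ± 0.17. At day 4 it had 106 to 164 CPM (median 148) in NTHi cultures, against 52.6 to 92.8 CPM (median 71.8) in control cultures, a rise of 0.92 ± 0.11 (adjusted p = 1.1e-05, edgeR), with no overlap at either step. Reads of Slc16a3 may include some of Csnk1d, which overlaps it in the RefSeq annotation.

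Slc2a3, the high-affinity glucose importer GLUT3, moved the other way at each step. It had 2.42 to 3.68 CPM (median 2.73) at airlift, against 11.7, 11.7 and 10.3 CPM at isolation, and at day 4 3.91 to 5.47 CPM (median 4.81) in NTHi cultures, against 5.86 to 9.40 CPM (median 7.67) in control cultures. The log2 fold change was -1.92 ± 0.15 at airlift over isolation, 1.36 ± 0.13 in day 4 control cultures over airlift and -0.68 ± 0.07 with NTHi (adjusted p = 3e-06, edgeR). The groups did not overlap in any of these comparisons. GLUT3 is also a transporter of leukocytes, and the summed macrophage and monocyte markers given above moved in the same direction at each step. Most of that sum is Lyz2, which alveolar type 2 cells of the mouse also express. Without it the other 11 summed to 1477 to 2689 CPM (median 2260) in NTHi cultures against 925 to 1759 CPM (median 1486) in control cultures, in overlapping ranges whose medians lie in the opposite direction to Slc2a3, and to 809 to 914 CPM at airlift against 1077 to 1180 CPM at isolation. Cd14 alone averaged 1636 ± 238 CPM in NTHi cultures and 204 ± 18.9 CPM in control cultures (SD, n = 7 each). Of the 12 markers 8 were lower and 2 higher at airlift over isolation, 5 were higher and 4 lower in control over airlift, 8 were lower and 2 higher with NTHi, and none was at 0. Their part in the course of Slc2a3 was not tested.

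Most glycolytic enzymes rose at airlift, where 13 of 16 were higher than at isolation, 2 were lower (Eno2, and Pfkm, which was at 0.13 with scaling by library totals only) and Hk2 did not pass the test. Their median log2 fold change was 2.06. The largest rise was that of Eno1, the main enolase, which had 2226 to 2727 CPM (median 2454) at airlift, against 137, 137 and 132 CPM at isolation, a log2 change of 4.22 ± 0.09 (adjusted p = 3.8e-17, edgeR). The libraries of the 2 stages were far apart. Pfkl, the liver-type phosphofructokinase, followed with 3.27 ± 0.09, and Pgk1, a kinase that forms ATP in the payoff phase, with 3.26 ± 0.09. Tpi1 (triose phosphate isomerase) rose by 3.02 ± 0.10, Ldha (the lactate dehydrogenase subunit that favours lactate) by 2.83 ± 0.09, Pgam1 by 2.83 ± 0.10 and Pkm, the pyruvate kinase of most tissues, by 2.57 ± 0.08. Aldoa, Gapdh, Aldoc, Gpi1, Pfkp and Hk1 rose by 0.81 to 2.25.

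By day 4 without NTHi, 14 of the 16 enzymes were lower than at airlift, Eno2 was higher and Pfkm, at 0.05 ± 0.08, did not pass the test. The median log2 fold change was -1.50. Pgk1 had 1815 to 2023 CPM (median 1990) at airlift, against 201, 217 and 203 CPM at isolation, and 565 to 742 CPM (median 722) in NTHi cultures, against 337 to 436 CPM (median 418) in control cultures. Its fall to the control level was -2.31 ± 0.06 and its rise with NTHi over control 0.77 ± 0.08 (adjusted p = 1.1e-06, edgeR), and the 4 groups did not overlap. The level in NTHi cultures remained -1.53 ± 0.06 from that at airlift.

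Ldha had 2567 to 3039 CPM (median 2868) at airlift, against 411, 394 and 403 CPM at isolation, and at day 4 1050 to 1522 CPM (median 1428) in NTHi cultures, against 841 to 1139 CPM (median 987) in control cultures. It rose with NTHi by 0.44 ± 0.09 (adjusted p = 0.00092, edgeR), but here the ranges overlapped, because 1 NTHi library of experiment C lay below 2 control libraries. Eno1 at day 4 had 1065 to 1342 CPM (median 1264) in NTHi cultures, against 821 to 1014 CPM (median 908) in control cultures, a rise of 0.41 ± 0.06 with no overlap.

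With NTHi, 12 of 16 enzymes rose, 2 fell (Pfkm and Aldoc), and Pgam1 (0.15 ± 0.07) and Eno2 (-0.19 ± 0.10) did not pass the test. Pgam1 was called, at 0.19, when NTHi replicate 3 or control replicate 2 of experiment C was left out. The median of the 16 was 0.37. The largest rise was that of Hk2, the inducible hexokinase that catalyses the first step. Hk2 had 248 to 342 CPM (median 321) in NTHi cultures, against 130 to 166 CPM (median 156) in control cultures, a log2 fold change of 1.04 ± 0.07 (adjusted p = 2.5e-08, edgeR). Every NTHi library lay above every control library. Before day 4 Hk2 had 154 to 223 CPM (median 169) at airlift, against 241, 218 and 179 CPM at isolation. These stages overlapped, and the difference of -0.22 ± 0.11 did not pass the test (adjusted p = 0.076, edgeR). It was called at -0.38 without the isolation library of experiment C and at -0.27 without airlift replicate 2 of that experiment, and it was 0.27 with scaling by library totals only. The NTHi level of Hk2 was above airlift too (0.77 ± 0.09). Its fall in control cultures relative to airlift (-0.27 ± 0.09) was -0.08 and not called without the 2 airlift libraries of experiment C.

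Other enzymes that rose with NTHi without overlap were Pfkl (0.78 ± 0.07), Tpi1 (0.76 ± 0.08) and Pkm (0.63 ± 0.06). Smaller rises with overlapping ranges were those of Gapdh (0.43 ± 0.10), Pfkp (0.33 ± 0.10), Aldoa (0.29 ± 0.11), Gpi1 (0.23 ± 0.07) and Hk1 (0.22 ± 0.04). Of these, Aldoa, with an adjusted p of 0.043 in edgeR, lost its call when any of 11 of the 14 libraries was left out (all but NTHi replicate 3 and control replicates 2 and 3 of experiment C), and Gpi1 lost it for any of 6 (replicate 1 of NTHi in each experiment, replicate 2 of control in A and B, and replicate 1 of control in C). In Pfkp, control replicate 1 of experiment C lay apart at 53.8 CPM. Pfkp and Gpi1 also lost theirs without experiment A or without experiment B.

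Pfkm, Eno2 and Aldoc were the 3 enzymes with a negative log2 change with NTHi, and that of Eno2 did not pass the test. Pfkm, the muscle-type phosphofructokinase, had 14.6 to 19.4 CPM (median 15.4) at airlift, against 19.6, 20.7 and 22.6 CPM at isolation, and at day 4 12.5 to 15.2 CPM (median 14.7) in NTHi cultures, against 14.1 to 19.2 CPM (median 17.9) in control cultures. Its NTHi fall of -0.26 ± 0.07 was within overlapping ranges and was not called without experiment A or without experiment B. Eno2, the neuronal enolase, had 2.42 to 4.18 CPM (median 3.53) at airlift, against 10.9, 8.61 and 7.45 CPM at isolation, and at day 4 4.70 to 8.39 CPM (median 7.01) in NTHi cultures, against 6.87 to 8.64 CPM (median 7.45) in control cultures. It fell at airlift by 1.34 ± 0.15 and was 1.10 ± 0.12 higher in control cultures than at airlift, with no overlap in either step. Aldoc, the brain-type aldolase, rose at airlift and fell with NTHi, with 84.4 to 114 CPM (median 96.8) at airlift, against 33.3, 27.4 and 32.1 CPM at isolation, and at day 4 15.7 to 27.0 CPM (median 26.3) in NTHi cultures, against 19.7 to 39.1 CPM (median 34.5) in control cultures. The fall with NTHi was -0.47 ± 0.14 (adjusted p = 0.016, edgeR) in overlapping ranges.

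Some enzymes have near-identical copies, among which the authors' counting could have split reads. Eno1b, a copy of Eno1, moved as Eno1 did, at 4.05 ± 0.11 for airlift over isolation, -1.49 ± 0.07 for control over airlift and 0.42 ± 0.08 for NTHi over control. Aldoart1, a copy of Aldoa, was at 2.48 ± 0.16 and -1.66 ± 0.11 in the first 2 of these. With NTHi, Eno1b was the 1 copy called of 4 tested, and Aldoart1 was not called. Aldoa itself had 4.31 to 25.7 CPM over all libraries, where Pkm averaged 983 CPM at isolation and 5748 CPM at airlift. Whether its low level comes from such splitting was not tested. The values of Aldoa, like those of Eno1, Gapdh and Pgam1, which also have counted copies, are uncertain to that extent. Pfkm overlaps Senp1, Pfkp overlaps Pitrm1 and Tpi1 overlaps Spsb2 in the RefSeq annotation, and without strand their reads cannot be told apart.

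**Figure D2:**
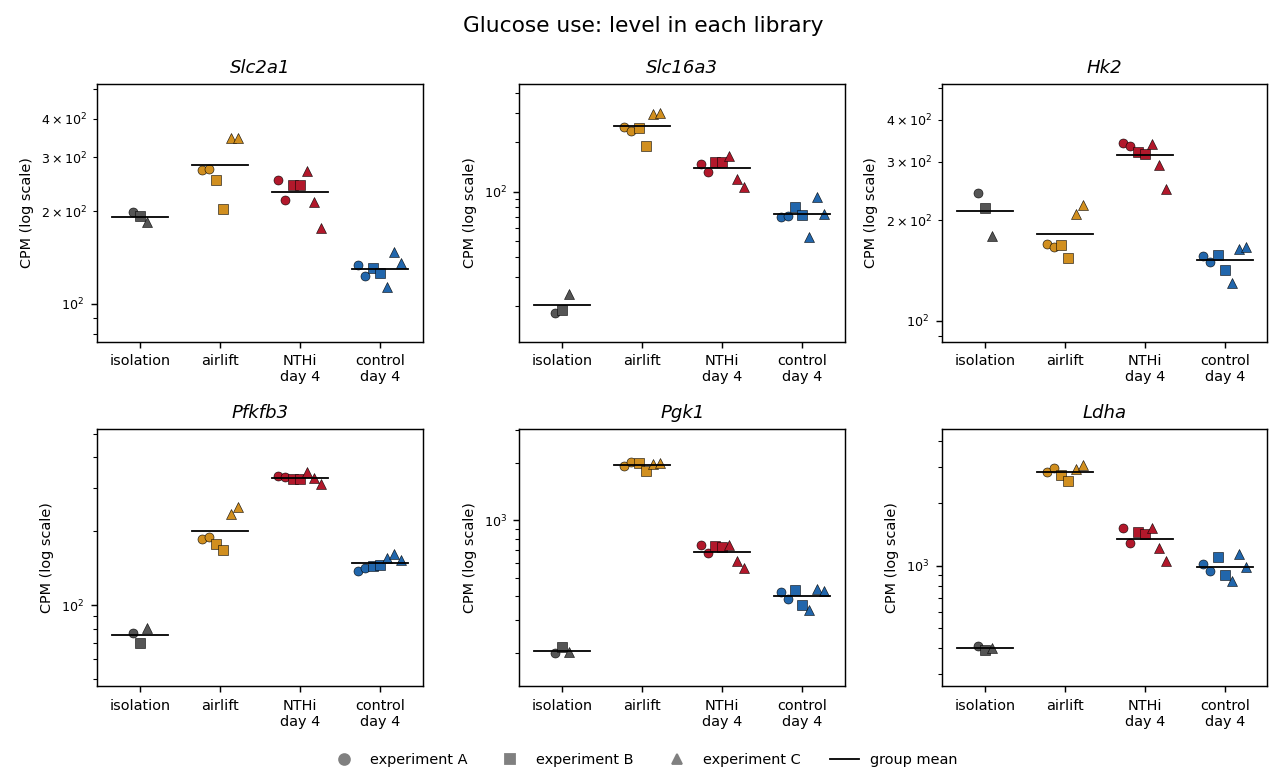
CPM on a log scale of 6 genes of glucose use in each library, by group (symbols give the experiment, lines the group mean). Pgk1 and Ldha peaked at airlift, and Hk2 and Pfkfb3 were highest in NTHi cultures, where Pfkfb3 lay between 313 and 349 CPM against 137 to 162 CPM in control cultures.

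Of the 3 regulators of glycolytic flux, Pfkfb3 and Pdk1 rose with NTHi. Pfkfb3 makes fructose 2,6-bisphosphate, the strongest activator of phosphofructokinase. It had 313 to 349 CPM (median 329) in NTHi cultures, against 137 to 162 CPM (median 146) in control cultures, a log2 change of 1.15 ± 0.04 (adjusted p = 9e-12, edgeR). The within-experiment ratios were 1.26, 1.17 and 1.07 in experiments A, B and C. Before day 4 it had 168 to 251 CPM (median 187) at airlift, against 76.9, 69.8 and 80.6 CPM at isolation, and it was higher in NTHi cultures than at airlift (0.69 ± 0.07), where 14 of the 16 enzymes were lower. Pfkfb4, its relative of the same family, had 39.3 to 46.0 CPM (median 42.9) at airlift, against 135, 117 and 118 CPM at isolation, and at day 4 32.2 to 58.5 CPM (median 52.1) in NTHi cultures, against 29.1 to 46.0 CPM (median 41.8) in control cultures. It fell at airlift by 1.52 ± 0.09 and was 0.25 ± 0.10 with NTHi, which did not pass the test (adjusted p = 0.056, edgeR) but did when NTHi replicate 3 or control replicate 2 of experiment C was left out (0.32 each). Pdk1, a kinase that shuts pyruvate dehydrogenase and so keeps pyruvate out of the mitochondrion, was 2.38 ± 0.12 at airlift over isolation, -2.02 ± 0.08 in control over airlift and 0.47 ± 0.08 with NTHi, the last without overlap.

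The HIF alpha subunits took courses of their own. Hif1a had 88.8 to 130 CPM (median 94.7) at airlift, against 175, 169 and 148 CPM at isolation, and at day 4 432 to 602 CPM (median 563) in NTHi cultures, against 200 to 297 CPM (median 224) in control cultures. It was lowest at airlift, where 13 of 16 enzymes had risen, and its rise with NTHi, 1.19 ± 0.09 (adjusted p = 6.9e-08, edgeR), was the highest of the 40, within its standard error of that of Pfkfb3. The rise held in each experiment, at 1.35, 1.24 and 1.06. Day 4 control cultures exceeded airlift by 1.22 ± 0.10 and NTHi cultures exceeded it by 2.42 ± 0.10. The fall at airlift (-0.68 ± 0.13) was -0.20 and not called (adjusted p = 0.15, edgeR) under scaling by library totals only. Hif1a overlaps Gm15283 in the RefSeq annotation.

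Epas1, which encodes HIF-2 alpha, had 77.0 to 88.1 CPM (median 82.6) at airlift, against 889, 934 and 1003 CPM at isolation, and at day 4 148 to 175 CPM (median 158) in NTHi cultures, against 153 to 224 CPM (median 187) in control cultures. The fall at airlift was 3.50 ± 0.08 on the log2 scale with no overlap (adjusted p = 1.1e-16, edgeR). Endothelial cells, which are rich in Epas1, had markers that summed to 19.8 to 39.4 CPM at airlift against 79.4 to 95.9 CPM at isolation, with 7 of 9 tested lower, and 5 of 6 alveolar markers fell at the same step. Their part in this result was not tested. With NTHi Epas1 fell by 0.21 ± 0.05 (adjusted p = 0.0068, edgeR) within overlapping ranges, and the fall was -0.11 and not called without experiment C.

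The prolyl hydroxylases followed the glycolytic enzymes. Egln3 had 73.8 to 182 CPM (median 100) at airlift, against 1.68, 0.882 and 1.80 CPM at isolation, and at day 4 45.4 to 66.0 CPM (median 48.6) in NTHi cultures, against 22.6 to 30.1 CPM (median 25.7) in control cultures. Its log2 fold change was 6.32 ± 0.26 at airlift over isolation, -2.18 ± 0.13 in control over airlift and 0.99 ± 0.09 with NTHi (adjusted p = 2.7e-07, edgeR), and the groups did not overlap in any of the 3. Egln1, the main HIF prolyl hydroxylase, had 204 to 251 CPM (median 215) at airlift, against 70.1, 68.7 and 62.8 CPM at isolation, and at day 4 98.0 to 118 CPM (median 112) in NTHi cultures, against 72.7 to 83.2 CPM (median 75.4) in control cultures. Its changes had the same signs in smaller size, at 1.74 ± 0.08, -1.54 ± 0.06 and 0.50 ± 0.04, also without overlap.

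The mitochondrial and mitophagy genes were highest at airlift, where all 4 rose over isolation, and all 4 were lower in control cultures than at airlift. Ndufa4l2, a HIF-induced relative of a subunit of the respiratory chain, had 8.88 to 14.1 CPM (median 11.1) at airlift, against 0 counts in each of the 3 isolation libraries. Set against a floor of 3 counts over that group (0.0355 CPM, counting error only), its airlift mean of 11.4 CPM was at least 322-fold higher, taking each count as 1 fragment. In NTHi cultures Ndufa4l2 had 0.890 to 1.87 CPM (median 1.23), against 0.340 to 0.756 CPM (median 0.544) in control cultures, a log2 rise of 1.13 ± 0.22 (adjusted p = 0.00073, edgeR) between ranges that did not overlap, at a level where few reads were counted. It overlaps Shmt2 in the RefSeq annotation. Control cultures lay -4.39 ± 0.14 from airlift, the largest fall of any member.

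Bnip3, a receptor that sends mitochondria to autophagy, had 513 to 641 CPM (median 545) at airlift, against 63.2, 65.9 and 55.9 CPM at isolation, and at day 4 115 to 184 CPM (median 163) in NTHi cultures, against 63.4 to 105 CPM (median 89.6) in control cultures. It fell in control cultures relative to airlift by 2.70 ± 0.09 and rose with NTHi by 0.80 ± 0.11 (adjusted p = 2.9e-05, edgeR), with no overlap. Its relative Bnip3l was 1.73 ± 0.08 at airlift over isolation and 0.08 ± 0.07 with NTHi, which did not pass the test. Higd1a, a small protein of the inner mitochondrial membrane, rose with NTHi by 0.48 ± 0.05 without overlap.

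Car9, a carbonic anhydrase at the cell surface and a standard marker of HIF activity, had 17.0 to 28.2 CPM (median 21.5) at airlift, against 1.61, 1.52 and 1.66 CPM at isolation, and at day 4 3.51 to 6.07 CPM (median 4.58) in NTHi cultures, against 2.28 to 2.74 CPM (median 2.51) in control cultures. The log2 fold change was 3.81 ± 0.14 at airlift over isolation, -3.19 ± 0.09 in control over airlift and 0.89 ± 0.11 with NTHi (adjusted p = 1.2e-05, edgeR). No library of 1 group reached the range of the other in these comparisons. Car9 overlaps Arhgef39 and Tpm2 in the RefSeq annotation. Car12, a related enzyme, stayed at 0.141 to 1.74 CPM in all libraries, and its NTHi difference of 0.54 ± 0.31 did not pass the test.

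The secreted and other hypoxia-responsive genes split. Vegfa, which encodes the growth factor of blood vessels and is a textbook HIF target, fell with NTHi. It had 347 to 418 CPM (median 369) in NTHi cultures, against 456 to 617 CPM (median 527) in control cultures, a log2 change of -0.48 ± 0.06 (adjusted p = 2.5e-05, edgeR), with every NTHi library below every control library. Earlier it had 390 to 668 CPM (median 473) at airlift, against 450, 427 and 421 CPM at isolation, and the differences of 0.24 ± 0.11 at airlift over isolation and 0.01 ± 0.08 in control over airlift did not pass the test, although the first was called without the isolation library of experiment B (0.32) or airlift replicate 2 of that experiment (0.29). In mouse lung Vegfa is also made by alveolar type 1 cells. Of 6 alveolar markers, which cover type 1 and type 2 cells, 5 fell and 1 rose with NTHi. They summed to 1227 to 1439 CPM in NTHi cultures against 4510 to 5525 CPM in control cultures, with the type 2 gene Sftpc the most abundant, and the type 1 marker Ager averaged 297 ± 26.2 CPM in NTHi cultures and 928 ± 97.5 CPM in control cultures (SD, n = 7 each). These markers also moved at the steps where Vegfa did not pass the test, with 5 lower and 1 higher at airlift over isolation and all 6 higher in control over airlift, where Ager was at -1.29 ± 0.12 and 1.31 ± 0.10. Their part in the fall of Vegfa was not tested.

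Ddit4, an inhibitor of mTORC1 induced by many stresses, rose with NTHi by 0.90 ± 0.05 and P4ha2, a collagen prolyl hydroxylase, by 0.67 ± 0.04, both without overlap. Adm, which encodes the vasoactive peptide adrenomedullin, rose by 0.66 ± 0.09 (adjusted p = 1.9e-05, edgeR), Ero1a, an oxidase of the endoplasmic reticulum, by 0.43 ± 0.08 and Kdm3a, a histone demethylase, by 0.32 ± 0.06. P4ha1 was at 0.02 ± 0.05 and did not pass the test, with control replicate 2 of experiment C apart at 121 CPM. Ankrd37, an ankyrin repeat protein, had 10.9 to 14.1 CPM (median 11.6) in NTHi cultures, against 12.8 to 14.7 CPM (median 13.6) in control cultures, a fall of 0.18 ± 0.05 in overlapping ranges (adjusted p = 0.016, edgeR) that was not called in 6 of the alternatives.

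**Figure D3:**
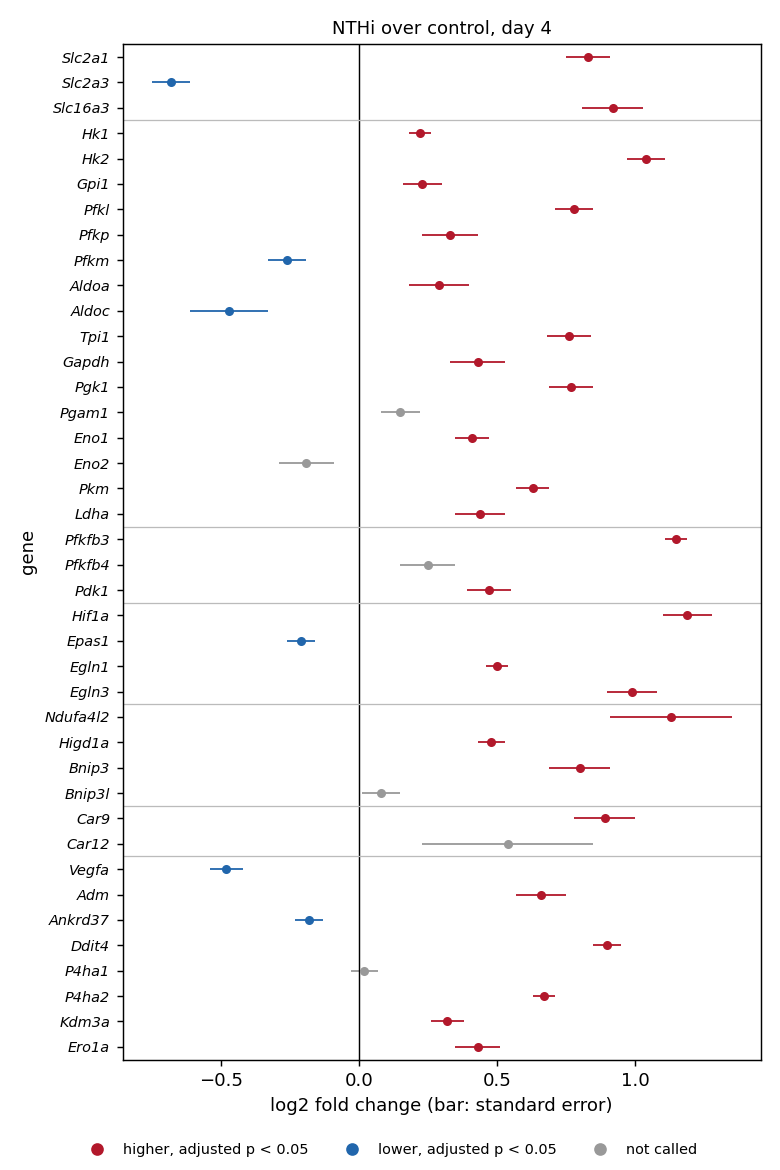
Log2 fold change of the 40 members in NTHi over control cultures at day 4, with standard errors as bars and colours for the call (edgeR, adjusted p below 0.05), grouped by role. The 28 rises lie between 0.22 (Hk1) and 1.19 (Hif1a), and the 6 falls are those of Slc2a3, Pfkm, Aldoc, Epas1, Vegfa and Ankrd37.

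No member had an NTHi effect that differed between experiments by the test used, which does not show that the effects were alike. In edgeR's interaction test 0 members were called and 0 had an unadjusted p below 0.05, with 0 genes called of 16337 and 675 genes (4.13%) at an unadjusted p below 0.05. DESeq2's likelihood ratio test called 0 members and 8 genes. The 2 experiment C libraries with the most mesenchymal RNA, NTHi replicate 3 and control replicate 1, summed to 535 and 504 CPM of mesenchymal markers, where the other day 4 libraries had at most 415 and 336 CPM. Without both, 30 members were higher in NTHi than in control cultures and 6 lower. Shares over all genes in that refit are not given here.

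At airlift the 2 libraries of experiment C stood apart in a few hypoxia-responsive genes. Adm had 58.3 and 66.0 CPM there, against 14.1 and 12.6 CPM in experiment A and 13.1 and 9.30 CPM in experiment B. Ankrd37 had 53.7 and 54.9 CPM in experiment C, against 17.5 and 20.8 CPM in A and 18.7 and 13 CPM in B. Egln3 had 180 and 182 CPM, against 98.2, 103, 76.3 and 73.8 CPM in the others. All 3 genes were higher in both experiment C libraries than in the other 4.

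A test of whether the change in control cultures over airlift differed between experiments, added after the data were seen (edgeR, 13 libraries), called 348 of 16719 genes (2.08%) and 4 members. The log2 ratios of Adm were -1.13, -0.77 and -3.31 in experiments A, B and C (adjusted p = 8.4e-05, edgeR), those of Ankrd37 were -0.45, -0.20 and -2.03 (adjusted p = 0.00054, edgeR), and those of Egln3 were -2.09, -1.53 and -2.72 (adjusted p = 0.00054, edgeR). Ddit4 changed sign, at 0.44, 0.71 and -0.31 (adjusted p = 0.0048, edgeR). Of the 16 glycolytic enzymes 0 were called in this test. Pgk1 (unadjusted p = 0.98, edgeR) had 1815 to 2023 CPM over all 6 airlift libraries. The unadjusted p was below 0.05 for the enzymes Hk1 (0.0089), Pfkm (0.011), Hk2 (0.028) and Eno1 (0.035). Among other members that were not called, it was also below 0.05 for Slc2a3 (0.0019), Pfkfb3 (0.0035), Epas1 (0.01), Slc2a1 (0.012) and Hif1a (0.014), for example. In the 2 libraries mesenchymal markers summed to 80.1 and 71.0 CPM, against 29.6 to 36.3 CPM in the other airlift libraries, and of 9 such markers tested 0 were called in the same test. It called 2 of 6 airway markers (Scgb1a1, adjusted p = 0.026, and Krt5, 0.0013, edgeR) and 2 of 6 alveolar markers (Ager, 0.042, and Hopx, 0.0096). The part of these markers in the split was not tested.

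Without these 2 libraries the rise of Adm at airlift over isolation was 0.39, against 1.30 ± 0.41 with them, and that of Ankrd37 was 1.24, against 1.88 ± 0.32. The falls in control cultures relative to airlift were -0.98 for Adm, against -1.96 ± 0.31, and -0.35 for Ankrd37, against -1.02 ± 0.22. The difference of NTHi cultures from airlift was -0.21 for Adm, no longer called, against -1.25 ± 0.35, and -0.07 for Slc2a1, no longer called, against -0.30 ± 0.11. Calls were gained for Ddit4 (0.50) and Vegfa (0.20) in control over airlift, and for Hk2 (-0.39) and P4ha1 (-0.26) at airlift over isolation. The call of Slc2a1 in NTHi over airlift was also lost without either one of them (-0.25 each), without NTHi replicate 2 of experiment A (-0.29) or without NTHi replicate 2 of experiment C (-0.27). The rise of Adm at airlift over isolation remained called without the 2 airlift libraries (adjusted p = 0.018, edgeR) and was not called, at 0.95, when the isolation library of experiment C was left out, and Ddit4 was called in control over airlift without airlift replicate 1 (0.30) or control replicate 2 (0.29) of experiment C. Without both airlift libraries of experiment C, members numbered 29 higher and 8 lower for airlift over isolation. For control over airlift they numbered 6 higher and 30 lower, and for NTHi over airlift 8 higher and 28 lower. The shares over all genes in these refits are not given here, so the counts describe the members only.

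**Figure D4:**
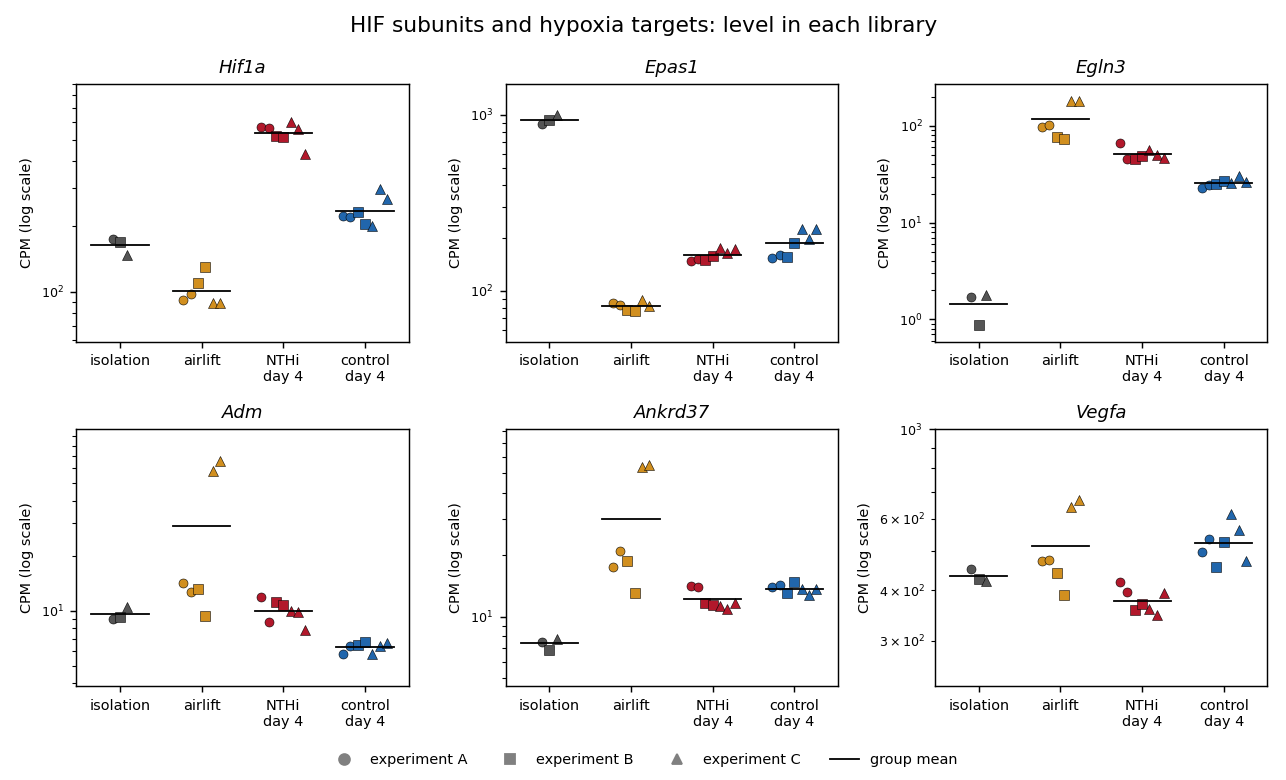
CPM on a log scale of both HIF alpha subunits and 4 hypoxia-responsive genes in each library, by group, with symbols for the experiment and lines for the group mean. Hif1a was highest in NTHi cultures (432 to 602 CPM, against 200 to 297 CPM in control cultures), Epas1 at isolation, and the experiment C libraries at airlift lay above the others for Adm, Ankrd37 and Egln3.

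**Figure D5:**
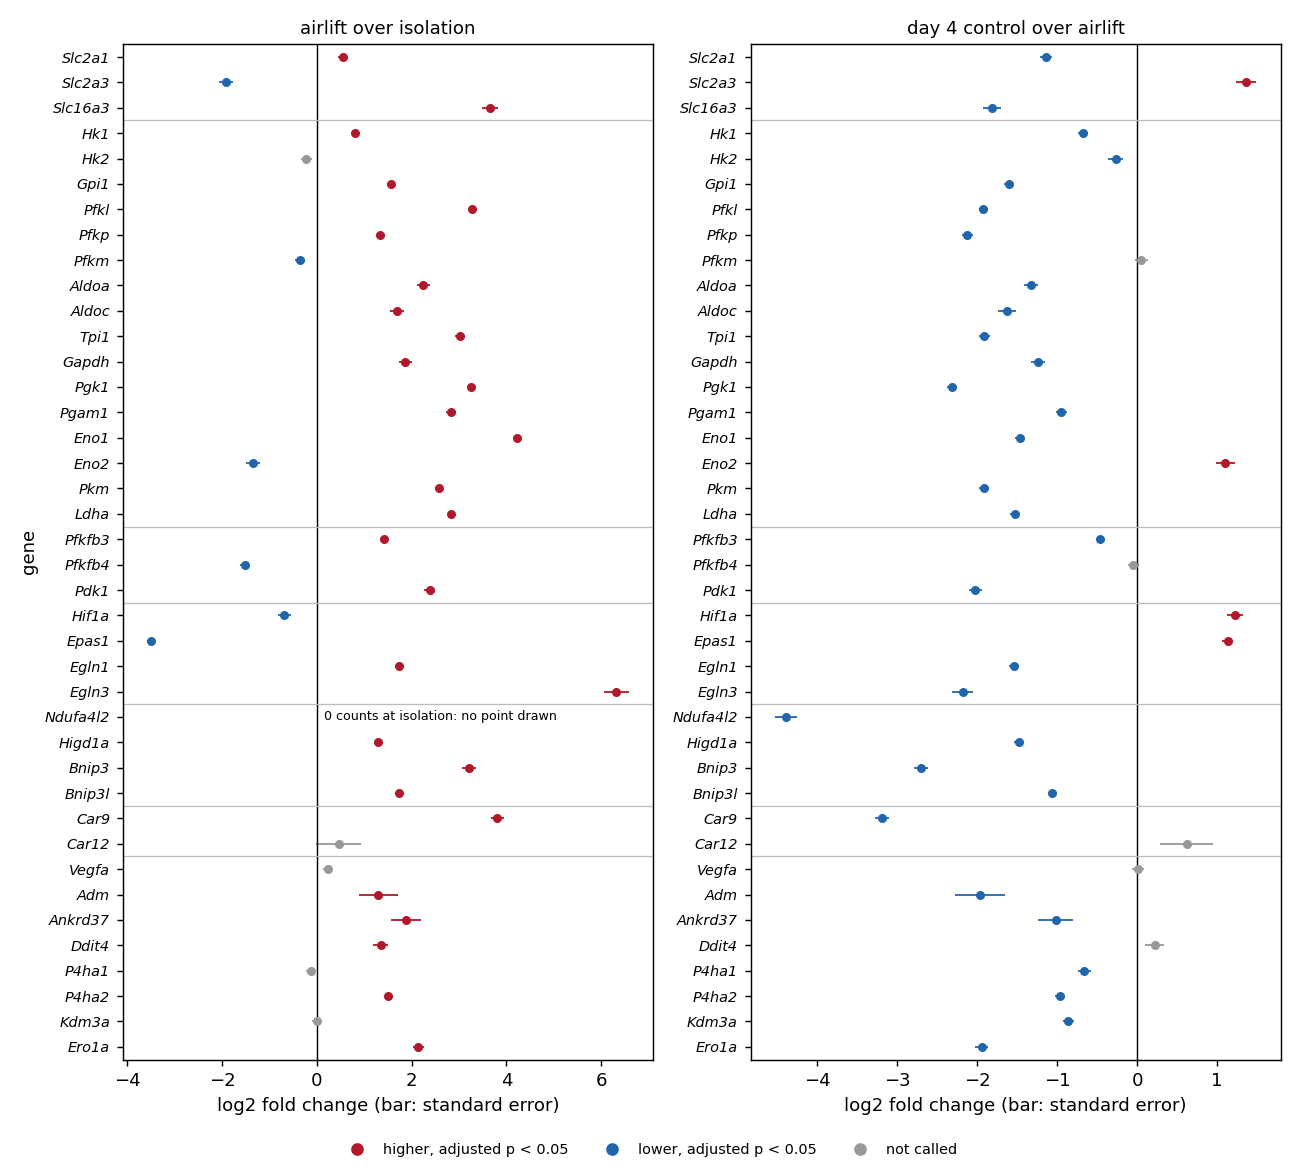
Log2 fold change of each member for airlift over isolation (left) and day 4 control over airlift (right), with standard errors as bars and colours for the call (edgeR, adjusted p below 0.05), on separate axes. In the left panel 28 members are drawn as higher, and Ndufa4l2, the other of the 29 called higher, has no point because it had 0 counts at isolation. In the right panel 31 were lower.

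Other genes of the same pathways did not all move with the members. Over all genes tested the shares called higher and lower were 20.1% and 20.4% with NTHi, 37.9% and 36.7% at airlift over isolation, and 26.9% and 27.7% in control over airlift. Of 34 further tested genes of glycolysis, gluconeogenesis and pyruvate handling, 5 were higher and 13 lower with NTHi (median -0.07), among them falls of Pdk4 (-1.21 ± 0.11), Hkdc1 (-1.19 ± 0.09), Slc16a7 (-0.60 ± 0.06) and Pdk2 (-0.46 ± 0.05). At airlift 10 of 35 were higher and 19 lower than at isolation (median -0.44), with Ldhb, the subunit that favours pyruvate, at -2.31 ± 0.07 and Bsg, the chaperone of the lactate transporters, at 2.53 ± 0.09. In control cultures against airlift 17 were higher and 8 lower (median 0.17), with Ldhb at 0.99 ± 0.06 and Bsg at -1.44 ± 0.06.

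Of 46 further genes of the HIF pathway and its targets, 23 were higher and 6 lower with NTHi (median 0.17). Among others, Ak4 (1.23 ± 0.11), Ier3 (1.10 ± 0.06) and Fam162a (0.98 ± 0.09) rose, and Flt1, a VEGF receptor, fell (-2.01 ± 0.25). At airlift over isolation 26 were higher and 13 lower (median 0.36), with Ak4 at 5.85 ± 0.16 and Mif at 3.54 ± 0.10. In control cultures over airlift 11 were higher and 27 lower (median -0.39), with Ndrg1 at -2.80 ± 0.09 and Ak4 at -2.64 ± 0.09.

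Of the 17 genes of the TCA cycle 1 was higher and 8 were lower with NTHi (median -0.09, Ogdh at -0.50 ± 0.05), 6 were higher and 5 lower at airlift over isolation (median 0.13), and 10 were higher and 3 lower in control over airlift (median 0.16). Of 8 genes of the pentose phosphate pathway 1 was higher and 3 lower with NTHi (median -0.09). The 1 was H6pd, the pathway's first enzyme in the endoplasmic reticulum, at 2.03 ± 0.05. At airlift over isolation 5 of them were higher and 2 lower (median 0.49), and in control over airlift 3 were higher and 4 lower (median -0.12).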

How the data were processed

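Genes were read by symbol from the 3 tables of raw counts that the authors deposited, 1 per experiment, which hold whole numbers that were not normalised. Per the submitters' processing notes, STAR and DESeq2 were used with build GRCm39. How reads were counted per gene, and whether strand was used, is not given in the sources used here. After 25 broken lines per table (6 genes, no member) were left out, 41073 genes remained. Among counts below 20, between 69.3% and 74.9% were even, so both reads of a pair may have been counted. Replicates of 1 group and experiment differed beyond sampling noise in all 13 pairs (chi-square per degree of freedom of at least 1.49 on halved counts), and each was counted as 1 sample.

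Each comparison was fitted on all genes with edgeR 4.0.16 in R 4.3.3 (filterByExpr with a minimum count of 10, TMM scaling, group and experiment as terms, quasi-likelihood F-test, Benjamini-Hochberg adjustment, threshold 0.05). NTHi against control used 14 libraries, the untreated stages 16 in 1 fit, and NTHi against airlift 13. Standard errors were taken as the absolute log2 fold change over the root of F, and CPM used TMM-scaled totals of the 23 libraries, with factors of 0.741 to 0.77 at isolation and 0.983 to 1.096 elsewhere. Floors cover counting error only.

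The members and the other gene lists were chosen with earlier results of these data known. Members named with levels were those with the 5 highest and 5 lowest called log2 fold changes in NTHi against control, airlift against isolation and control against airlift, plus 10 set genes; Adm, Ankrd37 and the members used as further examples were chosen after their values were seen. From other lists up to 4 called genes per direction with the smallest p were candidates. A gene of these lists is counted in them but not reported by name here. Whether replicate numbers in the labels pair libraries across groups was not settled, and the main fits did not pair them. The fits were tested on simulated counts drawn independently for each library. That test cannot show whether the real replicates are technical, and its results are not given here. Alternatives were DESeq2 1.42.0 and its size factors, library totals, no filter, no experiment term, summed counts, a replicate block, 1 fit on all libraries, halved counts, and leaving out each experiment or library. Added after the data were seen were 2 sets of libraries left out and the test of control against airlift by experiment.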

Additional observations from a re-analysis of the deposited data

Results flagged for a closer look

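The change in control cultures over airlift differed between experiments for 4 members in edgeR's interaction test with Benjamini-Hochberg adjustment over 16719 genes. The adjusted p was 8.4e-05 for Adm, 0.00054 for Ankrd37, 0.00054 for Egln3 and 0.0048 for Ddit4. Within experiments A, B and C the log2 ratios were -1.13, -0.77 and -3.31 for Adm and 0.44, 0.71 and -0.31 for Ddit4. In the same test 5 of 46 other genes of the HIF pathway were called, among them Ier3 (adjusted p = 0.0012), Bhlhe40 (0.0039), Gys1 (0.011) and Narf (0.034), and 1 of 34 other genes of glycolysis and pyruvate handling, Pdk4 (0.022).

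Single libraries stood far from the rest of their group in 2 of 120 groups of values examined, where chance alone gives about 1 in 20. Pfkp had 53.8 CPM in control replicate 1 of experiment C, where the next lowest control library had 70.1 CPM and the highest 79.1 CPM. P4ha1 had 121 CPM in control replicate 2 of experiment C, where the next highest had 101 CPM and the lowest 87.8 CPM.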

How the results depend on the processing

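Of the members called, 26 of 34 kept their call in all 27 alternatives for NTHi against control, 32 of 35 in 21 alternatives for airlift against isolation, 34 of 35 in 26 for control against airlift, 24 of 34 in 21 for control against isolation, and 35 of 40 in 26 for NTHi against airlift. With 1 library left out, members called for NTHi against control numbered 26 to 30 higher and 6 lower, and with other alternatives 25 to 30 higher and 4 to 6 lower. In that comparison the calls lost in at least 1 alternative were those of Adm, Aldoa, Aldoc, Ankrd37, Epas1, Gpi1, Pfkm and Pfkp. Scaling by library totals alone left 4223 genes lower at airlift over isolation and 4497 in control over isolation, with 5 members lower in the second comparison. It turned round Hk2 (0.27), Pfkm (0.13), P4ha1 (0.36) and Kdm3a (0.48) at airlift over isolation, and Gpi1 (0.43), Pfkm (0.17) and Higd1a (0.29) in control over isolation. In control over airlift 7 members were higher without experiment C, where 50.6% of all calls (not of all genes) were higher. The NTHi effect by experiment was called for 8 genes by DESeq2's likelihood ratio test. For NTHi and control libraries of the same replicate number, correlations of deviations from the group mean lay between -0.139 and 0.491. With experiment means also removed they lay between -0.659 and 0.246. Libraries of unlike numbers were not compared, so these values cannot decide whether the numbers pair libraries. With a replicate block 27 members were higher and 6 lower with NTHi, the lost call being that of Aldoa (0.29), while in control over airlift Car12 gained one (0.75). The causes of these changes were not tested. Depth limits Car12 and, at day 4, Ndufa4l2, whose libraries held few counts, and isolation rests on 1 library an experiment.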
